A study of Mus musculus with 10 samples.

Results

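The genes described here are the mouse Notch ligands and the Fringe genes that modify Notch receptors: the Delta ligands Dll1, Dll3 and Dll4, the Jagged ligands Jag1 and Jag2, and the glycosyltransferases Lfng, Mfng and Rfng. They were chosen by name, and all 8 were measured, on 13 probe sets, among 12393 genes in all. Each gene is represented by its brightest probe set (highest mean of the 10 arrays), and a second probe set existed for Dll4, Jag1, Jag2, Lfng and Rfng. The study hybridised total RNA of intestinal epithelium from C57BL/6 mice to 10 Affymetrix 430A 2.0 arrays, 2 in each of 5 groups.

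ISC were stem cells sorted for green fluorescence from Lgr5-eGFP-Cre mice. Rbpj Sec-Pro were crypt cells enriched for secretory progenitors by Rbpj knockout, and DBZ Sec-Pro were crypt cells enriched for them by the Notch inhibitor dibenzazepine. Ent-Pro, enterocyte progenitors, were crypt cells of Atoh1-/- mice, and ENT, mature enterocytes, were villus cells of Atoh1-/- mice, described in the labels as having no secretory cells. The dose of dibenzazepine, the Cre drivers of the deletions and the ages of the mice are not given in the sources used here. Only ISC are described as sorted, and the other groups are crypt or villus preparations. No group is taken here as a single cell type. Nothing in the labels tells whether paired arrays hold different mice, so the p-values refer to the spread between these arrays, which may be technical.

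Notch signals pass between touching cells. A Delta or Jagged ligand on one cell binds a Notch receptor on its neighbour, the receptor is cut by gamma-secretase, the enzyme that dibenzazepine inhibits, and its freed intracellular part joins Rbpj on DNA to switch on genes such as Hes1. In the intestinal crypt, cells with active Notch keep Atoh1 off and become absorptive, while cells that escape it turn on Atoh1, become secretory and present ligand to their neighbours. Fringe enzymes add N-acetylglucosamine to O-fucose on Notch receptors and so change how these respond to Delta and to Jagged ligands.

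Promoter sequences are shown for the Delta ligands Dll1 and Dll4, which were higher in both Sec-Pro groups, and for the Jagged ligand Jag1, which was called higher in neither. Each is the stretch of 250 bases before the outermost annotated start of the gene (RefSeq, GRCm38.p6), written 5′ to 3′ on the strand of the gene. Capitals mark CAGCTG, an E-box of a kind bound by basic helix-loop-helix factors such as Atoh1. The Dll1 stretch is chr17:15376933-15377182 (minus strand), that of Dll4 is chr2:119325534-119325783 (plus strand, overlapping the gene Gm14207), and that of Jag1 is chr2:137116521-137116770 (minus strand).
Dll1: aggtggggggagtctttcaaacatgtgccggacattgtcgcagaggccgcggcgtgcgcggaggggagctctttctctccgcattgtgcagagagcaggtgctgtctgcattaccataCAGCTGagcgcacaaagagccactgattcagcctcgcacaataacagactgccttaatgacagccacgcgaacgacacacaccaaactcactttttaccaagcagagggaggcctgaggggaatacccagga
Dll4: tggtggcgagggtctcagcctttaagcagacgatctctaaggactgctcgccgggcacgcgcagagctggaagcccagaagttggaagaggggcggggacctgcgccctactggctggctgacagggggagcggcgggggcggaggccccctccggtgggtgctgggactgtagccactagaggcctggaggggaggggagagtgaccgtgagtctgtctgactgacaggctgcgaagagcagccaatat
Jag1: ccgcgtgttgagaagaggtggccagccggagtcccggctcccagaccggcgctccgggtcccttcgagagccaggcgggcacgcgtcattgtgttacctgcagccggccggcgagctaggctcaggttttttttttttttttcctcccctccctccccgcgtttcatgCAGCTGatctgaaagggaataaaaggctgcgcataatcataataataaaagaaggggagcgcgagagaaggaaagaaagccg

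Such a stretch was found for 5 of the 8 genes, the other 2 with one being Dll3 and Lfng. Searched on both strands, CAGCTG, which reads the same on either, occurred once in Dll1, 132 bases before the start, once in Jag1 at 82, once in Dll3 at 7 and once in Lfng at 146, and was not found in Dll4. Over 10583 promoters of protein-coding genes cut the same way, 11.1% held it. CAGATG (or CATCTG), another E-box, was in none of the 5 and in 13.8% of all, and TGGGAA (or TTCCCA), the core of the site bound by Rbpj, was in Lfng (2 matches, at 135 and 108) and in 20.6% of all. No matches of different motifs overlapped. A match describes the letters of a stretch and not a bound site.

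The values are log2 expression as deposited, with array medians between 6.83 and 6.98. Arrays of the same group correlated across genes with r from 0.982 to 0.995, and genes are not independent replicates. Atoh1, the factor that starts secretory fate, read 4.97 to 5.78 in the Atoh1-/- groups, 7.68 and 7.80 in ISC and 10.40 to 11.85 in Sec-Pro. Rbpj read 6.74 and 6.62 in Rbpj Sec-Pro against 8.07 to 8.31 in ISC, DBZ Sec-Pro and Ent-Pro. In ENT, which is not labelled as Rbpj knockout, Rbpj was also low, at 7.00 and 7.21. Lgr5 read 11.36 and 11.06 in ISC against at most 8.80 elsewhere. In bulk RNA, fewer cells of a type and less RNA per cell cannot be told apart.

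Dll1 and Dll4 were higher in both groups of secretory progenitors than in stem cells or enterocyte progenitors, and Dll3 was higher in DBZ Sec-Pro. On their brighter probe sets the Jagged ligands were called higher in neither Sec-Pro group, and Jag1 was called lower in both than in Ent-Pro. The Fringe genes split. A gene was called when limma's moderated test, fitted to all genes and all arrays, gave an adjusted p (Benjamini-Hochberg) below 0.05. Shares of all genes called are given beside the counts.

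Against ISC, 4 of the 8 genes were called in Rbpj Sec-Pro (47.1% of all genes), 2 higher (17.7%) and 2 lower (29.4%). In DBZ Sec-Pro 6 were called against ISC (36.2%), 5 higher (15.9%) and 1 lower (20.3%). Against Ent-Pro, 4 were called in Rbpj Sec-Pro (26.3%), 2 higher (9.37%) and 2 lower (16.9%). In DBZ Sec-Pro 5 were called against Ent-Pro (18.6%), 4 higher (8.84%) and 1 lower (9.77%). The count of 4 in Rbpj Sec-Pro against ISC lay near the share of all genes, and both counts of higher genes in DBZ Sec-Pro were over it.

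In the Atoh1-/- groups, Ent-Pro differed from ISC in 3 (25.5%), 1 higher (12.1%) and 2 lower (13.5%), and ENT from ISC in 2 (49.2%), none higher (22.3%) and 2 lower (26.8%). ENT differed from Ent-Pro in 2 (38.7%), 1 higher (18.5%) and 1 lower (20.2%). DBZ Sec-Pro differed from Rbpj Sec-Pro in 4 (16.4%), all higher (9.34%, with 7.08% lower). Rbpj Sec-Pro differed from ENT in 3 (35.8%), 2 higher (14.8%) and 1 lower (21%), and DBZ Sec-Pro from ENT in 7 (45.1%), 5 higher (21.9%) and 2 lower (23.3%).

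Scaling moved some of these splits. After cyclic loess, Rbpj Sec-Pro had 2 higher and 1 lower against ISC and 2 higher and 0 lower against Ent-Pro, and of all genes called there 48.9% and 52.9% were higher, against 37.6% and 35.7% as deposited. After centring the arrays on their medians, DBZ Sec-Pro had 5 higher and 2 lower against ISC, Rbpj Sec-Pro 2 higher and 2 lower against ENT, ENT 1 higher and 1 lower against ISC, and ENT 1 higher and 0 lower against Ent-Pro. Of all genes called in DBZ Sec-Pro against Ent-Pro, 35.5% were then higher against 47.5% as deposited.

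Over the 8 genes the median log2 difference of DBZ Sec-Pro was 0.95 against ISC and 0.91 against Ent-Pro, beside -0.09 and -0.08 over all genes. For Rbpj Sec-Pro these medians were 0.09 and -0.08, beside -0.14 and -0.12 over all genes. Comparisons with ISC share the ISC arrays and those with Ent-Pro share the Ent-Pro arrays. Without 1 array the share of all genes called changed too, mostly downward. The counts that follow therefore do not show a change particular to the 8 genes. Leaving out 1 array moved several of the counts: Rbpj Sec-Pro against ISC gave 2 without ISC replicate 2, and Ent-Pro against ISC gave 1 without either ISC, DBZ Sec-Pro or Ent-Pro array. ENT against ISC gave 0 without either ISC array, 4 without either Rbpj Sec-Pro array and 1 without any one of the other 6. Rbpj Sec-Pro against Ent-Pro gave 2 without either ISC array, either Ent-Pro array or Rbpj Sec-Pro replicate 1. ENT against Ent-Pro gave 0 without either Ent-Pro array or ENT replicate 2, and 1 without either ISC array or ENT replicate 1. DBZ against Rbpj Sec-Pro gave 2 without Rbpj Sec-Pro replicate 1 or DBZ Sec-Pro replicate 2.

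**Figure D1:**
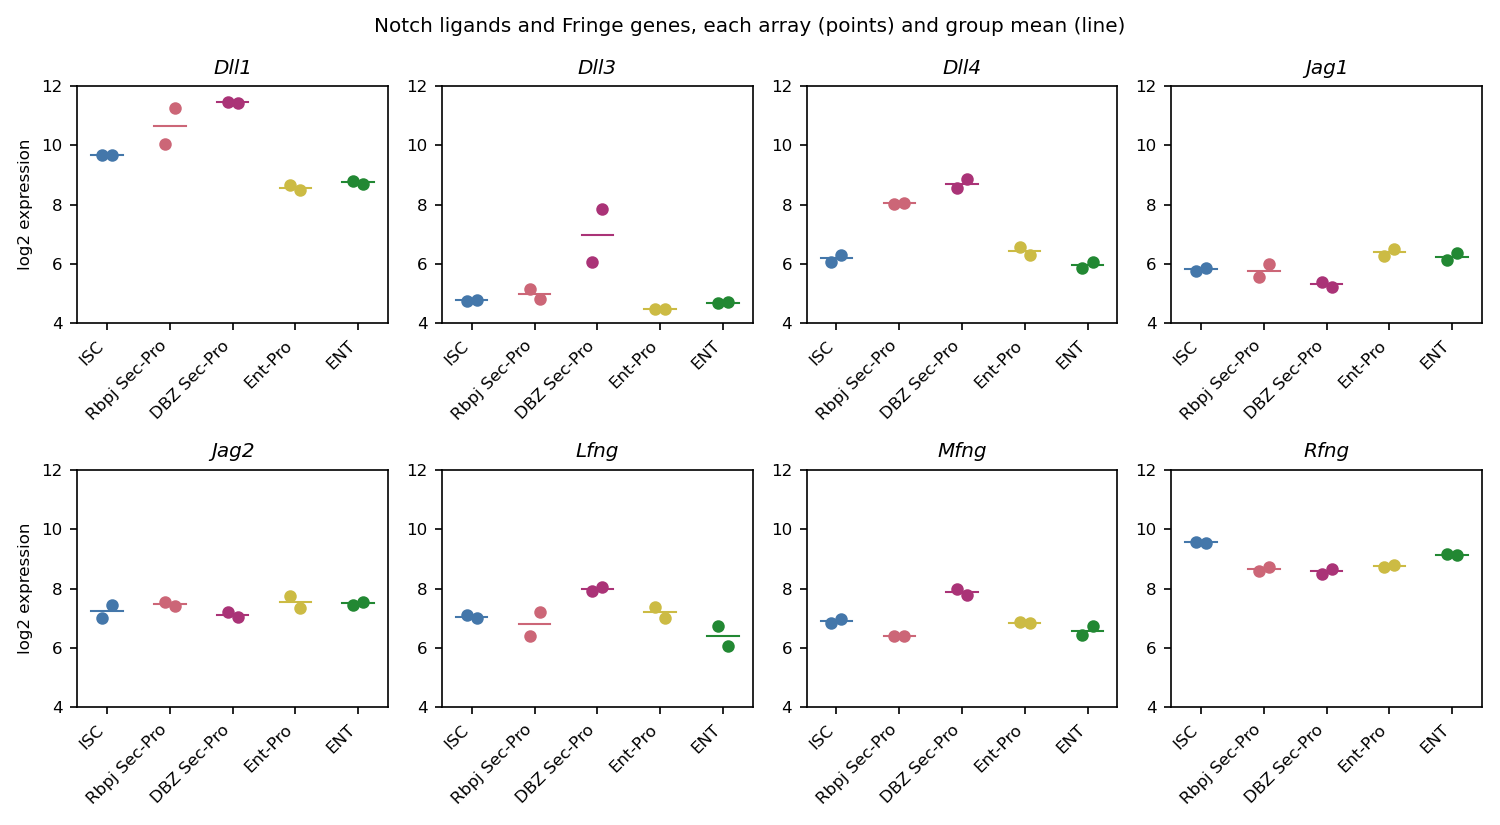
Log2 expression (y axis) of the 8 genes on each array (points) with the mean of each group of 2 (line). Dll1 and Dll4 sit highest in both Sec-Pro groups, Dll3, Lfng and Mfng in DBZ Sec-Pro and Rfng in ISC. Levels of different genes come from different probes and are not comparable.

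Dll1, a Delta ligand that activates Notch on neighbouring cells, was highest in secretory progenitors and lowest in the Atoh1-/- groups. It read 11.46 and 11.43 in DBZ Sec-Pro, 10.04 and 11.26 in Rbpj Sec-Pro, 9.66 and 9.67 in ISC, 8.81 and 8.70 in ENT and 8.65 and 8.48 in Ent-Pro. No groups overlapped, and Rbpj Sec-Pro was the group whose arrays lay far apart. Against Ent-Pro the log2 difference was 2.88 (SE 0.31, adjusted p = 0.000464), or 7.36-fold, in DBZ Sec-Pro and 2.08 (adjusted p = 0.00378), or 4.24-fold, in Rbpj Sec-Pro. Against ISC it was 1.78 (adjusted p = 0.00235) in DBZ Sec-Pro and 0.98 (adjusted p = 0.0301) in Rbpj Sec-Pro.

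Dll1 was also lower in Ent-Pro than in ISC, by a log2 difference of -1.10 (adjusted p = 0.0317), and lower in ENT than in ISC, by -0.91 (adjusted p = 0.0385). ENT and Ent-Pro, next to each other in the order, differed by 0.19 (95% interval -0.52 to 0.90, adjusted p = 0.697), and DBZ and Rbpj Sec-Pro by 0.80 (0.08 to 1.51, adjusted p = 0.114). The last of these became 1.41 (adjusted p = 0.000949) without Rbpj Sec-Pro replicate 2 and 0.18 without replicate 1. Rbpj Sec-Pro against ISC became 1.60 without Rbpj Sec-Pro replicate 1 and 0.37 (adjusted p = 0.0599) without replicate 2, and its call was also lost without either ISC array. The call of Ent-Pro against ISC was lost without either ISC, DBZ Sec-Pro or Ent-Pro array (adjusted p from 0.0505 to 0.149), and that of ENT against ISC without any of these or either ENT array (0.055 to 0.137) and after centring (0.0502). With only the 4 arrays of the groups compared, Dll1 in Rbpj Sec-Pro had an adjusted p of 0.0584 against Ent-Pro and 0.103 against ISC.

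Dll4, a second activating Delta ligand, which acts beside Dll1 in the crypt, was higher in both groups of secretory progenitors than in every other group. It read 8.56 and 8.86 in DBZ Sec-Pro and 8.01 and 8.07 in Rbpj Sec-Pro, against 6.57 and 6.30 in Ent-Pro, 6.07 and 6.31 in ISC and 5.87 and 6.07 in ENT. The lowest of the 4 Sec-Pro arrays lay above every array of the other groups, and ISC overlapped with Ent-Pro and with ENT. Against ISC the log2 difference was 2.52 (SE 0.16, adjusted p = 2.15e-05), or 5.72-fold, in DBZ Sec-Pro and 1.85 (adjusted p = 6.92e-05), or 3.61-fold, in Rbpj Sec-Pro. Against Ent-Pro these were 2.27 (adjusted p = 3.91e-05) and 1.61 (adjusted p = 0.000534).

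Its second probe set moved the same way, with r = 0.99 over the 10 arrays. There the log2 difference from ISC was 1.89 in DBZ Sec-Pro (adjusted p = 6.96e-05) and 1.13 in Rbpj Sec-Pro (adjusted p = 0.000567). DBZ exceeded Rbpj Sec-Pro by 0.66 (adjusted p = 0.0271) on the first probe set and by 0.75 (adjusted p = 0.0181) on the second. The first of these calls was lost without Rbpj Sec-Pro replicate 1 (0.63, adjusted p = 0.0888) or DBZ Sec-Pro replicate 2 (0.51, adjusted p = 0.161), and with only the arrays of the 2 groups (adjusted p = 0.111). ENT was lower than ISC by -0.44 (adjusted p = 0.0455) on the second probe set, against -0.22 (adjusted p = 0.302) on the first. On the second, ENT was also lower than Ent-Pro, by -0.47 (adjusted p = 0.043). On the first, Dll4 was slightly lower in ENT than in Ent-Pro, by -0.46 (adjusted p = 0.0484). That call was lost without either array of ISC, Rbpj Sec-Pro, Ent-Pro or ENT (adjusted p from 0.0504 to 0.271), and also after centring, with the replicate block, in a fit of all probe sets, with a variance trend or with only those 4 arrays (0.0511 to 0.0677).

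Dll3, a divergent Delta protein that does not activate Notch on neighbouring cells, stood out in DBZ Sec-Pro. It read 6.09 and 7.87 there, 5.16 and 4.83 in Rbpj Sec-Pro, 4.76 and 4.79 in ISC, 4.67 and 4.71 in ENT and 4.47 and 4.49 in Ent-Pro. In ISC, Ent-Pro and ENT it was near background, taken as less than 1 (log2) above the absent control TrpnX on both arrays of a group, so fold changes against them are lower bounds with these arrays set to that control plus 1. Dll3 was at least 4.55-fold higher in DBZ Sec-Pro than in ISC (measured log2 difference 2.20, SE 0.45, adjusted p = 0.00477), at least 4.97-fold higher than in Ent-Pro (2.49, adjusted p = 0.00561) and at least 4.56-fold higher than in ENT (2.28, adjusted p = 0.00311).

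The 2 DBZ Sec-Pro arrays differed by 1.78 in Dll3, and both lay above all other arrays. Without DBZ Sec-Pro replicate 2 the log2 differences were 1.31 against ISC, 1.60 against Ent-Pro, 1.39 against ENT and 1.09 against Rbpj Sec-Pro, all still called (the largest adjusted p was 0.0263, against Rbpj Sec-Pro). With both arrays the difference from Rbpj Sec-Pro was 1.98 (adjusted p = 0.0219). That call was lost without Rbpj Sec-Pro replicate 1 (2.15, adjusted p = 0.0515) and with only the arrays of the 2 groups (adjusted p = 0.133). Rbpj Sec-Pro exceeded Ent-Pro in Dll3 by 0.51 (adjusted p = 0.414), which was called without either DBZ Sec-Pro array (adjusted p = 0.0351). DBZ Sec-Pro replicate 2, the high array, also read higher than replicate 1 in the means of the leukocyte list (8.15 against 7.11) and the stromal list (6.26 against 5.60), and lower in the enteroendocrine list (10.14 against 10.40). The part of these cells in the Dll3 value was not tested.

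Jag1, a Jagged ligand, was lowest in DBZ Sec-Pro and highest in Ent-Pro on its brighter probe set. Its arrays read 6.28 and 6.50 for Ent-Pro, 6.12 and 6.38 for ENT, 5.76 and 5.88 for ISC, 5.56 and 6.001 for Rbpj Sec-Pro and 5.39 and 5.24 for DBZ Sec-Pro. DBZ Sec-Pro lay below all other groups, while ISC overlapped with Rbpj Sec-Pro and Ent-Pro with ENT. Jag1 was lower in DBZ Sec-Pro than in Ent-Pro by a log2 difference of -1.07 (SE 0.17, adjusted p = 0.00367) and than in ENT by -0.94 (adjusted p = 0.00247). In Rbpj Sec-Pro it was lower than in Ent-Pro by -0.61 (adjusted p = 0.0339), and in Ent-Pro it was higher than in ISC by 0.57 (adjusted p = 0.0413).

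The dimmer Jag1 probe set did not follow (r = -0.34 over the 10 arrays). Its group means spanned 0.28, from 5.09 to 5.37, and none of the 10 comparisons was called on it. For DBZ Sec-Pro against Ent-Pro and against ENT its log2 differences were 0.12 and 0.01. On the brighter probe set the call of Rbpj Sec-Pro against Ent-Pro was lost without either ISC or Ent-Pro array and became -0.39 without Rbpj Sec-Pro replicate 1 (adjusted p from 0.0509 to 0.181), and it was lost after cyclic loess (0.0591) and with only those 4 arrays (0.105). That of Ent-Pro against ISC was lost without either ISC, DBZ Sec-Pro or Ent-Pro array (adjusted p from 0.0569 to 0.23).

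Jag2, the other Jagged ligand, was not called in any of the 10 comparisons on its brighter probe set. Its arrays read 7.77 and 7.36 for Ent-Pro, 7.46 and 7.56 for ENT, 7.56 and 7.41 for Rbpj Sec-Pro, 7.01 and 7.46 for ISC and 7.21 and 7.04 for DBZ Sec-Pro, and neighbours in this order overlapped. The largest difference, DBZ Sec-Pro against Ent-Pro, was -0.44 (95% interval -0.86 to -0.02, adjusted p = 0.14). The dimmer probe set gave another pattern in Rbpj Sec-Pro, reading 6.23 and 5.68 there and 5.07 to 5.33 on the other 8 arrays. On it Jag2 was higher in Rbpj Sec-Pro than in Ent-Pro by 0.89 (adjusted p = 0.00972) and than in ISC by 0.64 (adjusted p = 0.0142). It was also higher there than in ENT by 0.64 (adjusted p = 0.0194), and DBZ Sec-Pro was lower than Rbpj Sec-Pro by -0.74 (adjusted p = 0.0246). The probe sets correlated with r = 0.18 over the 10 arrays.

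**Figure D2:**
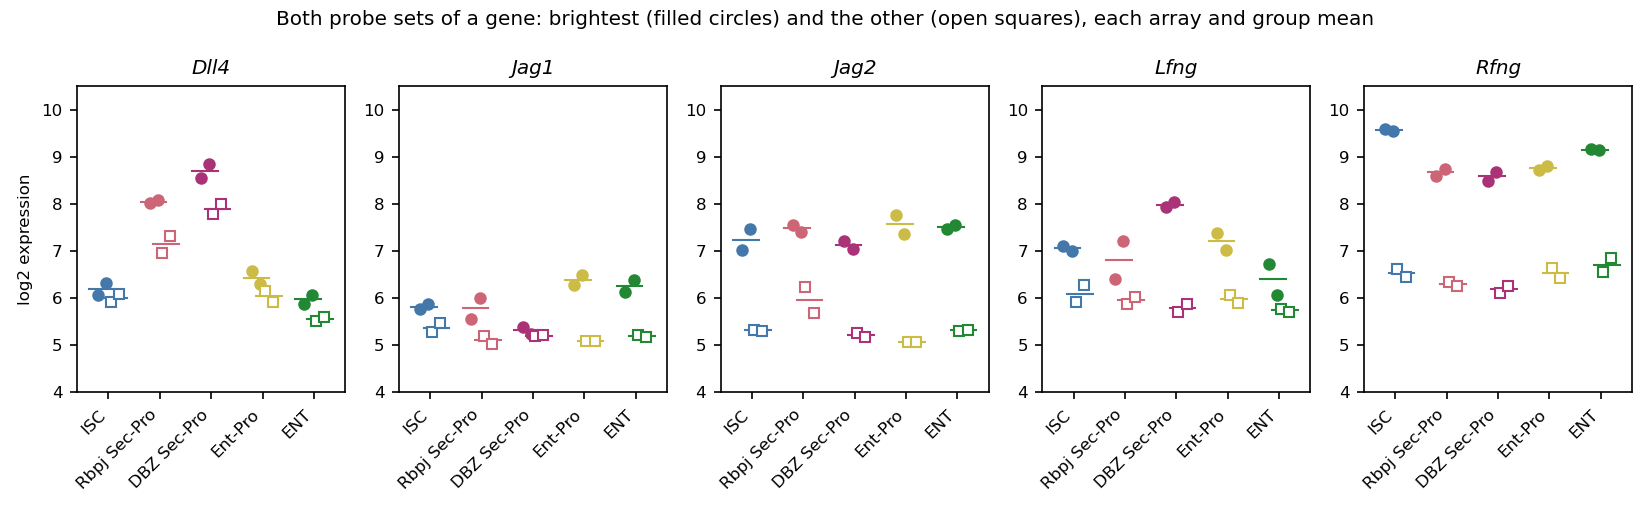
Log2 expression (y axis) of the 5 genes with 2 probe sets on each array, with the group mean as a line; filled circles are the brightest probe set, open squares the other. Both probe sets of Dll4 are highest in the Sec-Pro groups, whereas those of Jag1, Jag2 and Lfng do not run in parallel. For Rfng the brightest is highest in ISC and the other in ENT.

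The Fringe genes did not move as a family. Mfng, the manic fringe enzyme, lay above ISC in DBZ Sec-Pro and below ISC in Rbpj Sec-Pro. It read 7.99 and 7.80 in DBZ Sec-Pro, 6.85 and 6.98 in ISC, 6.86 and 6.85 in Ent-Pro, 6.45 and 6.73 in ENT and 6.39 and 6.42 in Rbpj Sec-Pro. DBZ Sec-Pro lay above every other array and Rbpj Sec-Pro below every other array. Against ISC, Mfng was higher in DBZ Sec-Pro by 0.97 (SE 0.13, adjusted p = 0.00067) and lower in Rbpj Sec-Pro by a log2 difference of -0.52 (adjusted p = 0.0128). Against Ent-Pro these were 1.03 (adjusted p = 0.0012) and -0.45 (adjusted p = 0.0375). Only ISC were sorted, and no unsorted crypt group was both free of a Notch block and Atoh1-intact. Notch block, sorting, genotype and cell mix therefore cannot be told apart in these differences.

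The difference between DBZ and Rbpj Sec-Pro was 1.49 (SE 0.13, 2.81-fold, adjusted p = 0.000979) for Mfng, and it stayed called under each alternative that tested the gene (adjusted p from 0.00106 to 0.0445). The lower values of Rbpj Sec-Pro were less firm. Against ISC the call was lost without ISC replicate 2 (adjusted p = 0.0734) and after cyclic loess (adjusted p = 0.0642). Against Ent-Pro it was lost without either array of ISC, Rbpj Sec-Pro or Ent-Pro (adjusted p from 0.0502 to 0.153), after cyclic loess (0.0642), with the replicate block (0.0528), with a variance trend (0.0569) and with only those 4 arrays (0.0742).

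Lfng, lunatic fringe, was highest in DBZ Sec-Pro. It read 7.93 and 8.04 there, 7.39 and 7.03 in Ent-Pro, 7.12 and 6.998 for ISC, 6.42 and 7.22 for Rbpj Sec-Pro and 6.73 and 6.07 for ENT. DBZ Sec-Pro overlapped with no group, while Ent-Pro, ISC and Rbpj Sec-Pro overlapped with each other and Rbpj Sec-Pro also with ENT. Lfng was higher in DBZ Sec-Pro than in ENT by 1.58 (SE 0.29, adjusted p = 0.00209), than in Rbpj Sec-Pro by 1.17 (adjusted p = 0.028) and than in ISC by 0.93 (adjusted p = 0.0322), and by 0.78 than in Ent-Pro, which did not pass (adjusted p = 0.0931). ENT was below Ent-Pro by a log2 difference of -0.80 (adjusted p = 0.053). Without either Rbpj Sec-Pro array, which differed by 0.80 in Lfng, the last of these was called (adjusted p = 0.0168), and so was DBZ Sec-Pro against Ent-Pro (0.034).

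The Lfng calls were not firm. Against ISC the call was lost without either ISC or DBZ Sec-Pro array (adjusted p from 0.0907 to 0.142). Against Rbpj Sec-Pro it was lost without Rbpj Sec-Pro replicate 1 (0.77, adjusted p = 0.112) or either DBZ Sec-Pro array (0.0783 and 0.141), and with only those 4 arrays (0.109). The dimmer Lfng probe set read 5.70 to 6.28 on all arrays, with none of the 10 comparisons called and log2 differences of -0.31 for DBZ Sec-Pro against ISC and -0.16 against Rbpj Sec-Pro.

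Rfng, radical fringe, was highest in stem cells on its brighter probe set. It read 9.58 and 9.55 in ISC, 9.16 and 9.14 in ENT, 8.71 and 8.797 in Ent-Pro, 8.595 and 8.74 for Rbpj Sec-Pro and 8.49 and 8.68 for DBZ Sec-Pro. ISC lay above all groups and ENT above the 3 progenitor groups, of which Rbpj Sec-Pro overlapped with both others. Against ISC, Rfng was lower by a log2 difference of -0.98 (SE 0.12, adjusted p = 0.000366) in DBZ Sec-Pro, -0.90 (adjusted p = 0.000441) in Rbpj Sec-Pro, -0.81 (adjusted p = 0.00171) in Ent-Pro and -0.42 (adjusted p = 0.0174) in ENT. The 3 progenitor groups differed from each other by at most 0.17, with adjusted p from 0.378 to 0.667.

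Rfng was higher in ENT than in Ent-Pro by 0.40 (adjusted p = 0.0274), than in Rbpj Sec-Pro by 0.48 (adjusted p = 0.0141) and than in DBZ Sec-Pro by 0.57 (adjusted p = 0.00467). The calls of ENT against ISC and against Ent-Pro were lost without either array of the groups compared (adjusted p from 0.0538 to 0.145), and that against Rbpj Sec-Pro without Rbpj Sec-Pro replicate 1 or either ENT array (0.052 to 0.0646) and with only those 4 arrays (0.0717). On the dimmer probe set, which read 6.11 to 6.85, the differences from ISC were -0.35 in DBZ Sec-Pro, -0.23 in Rbpj Sec-Pro, -0.003 in Ent-Pro and 0.17 in ENT, none of them called.

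**Figure D3:**
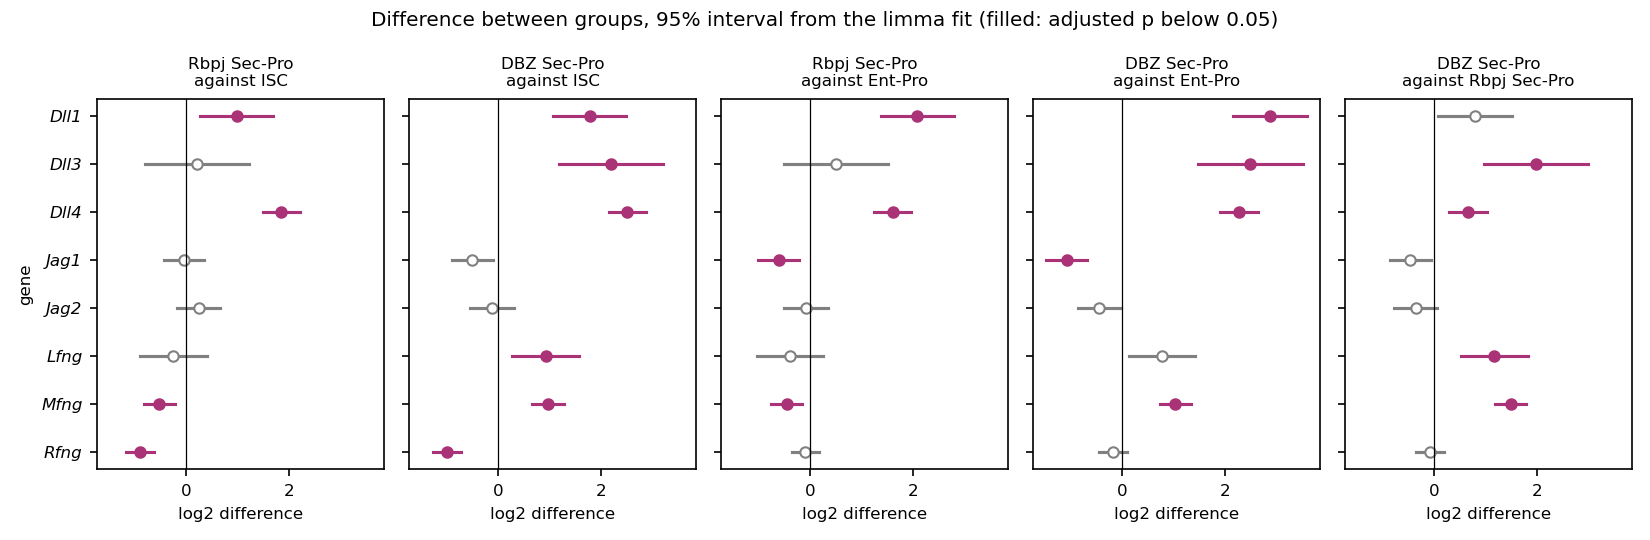
Log2 difference between groups (x axis) for each of the 8 genes with its 95% interval from the limma fit; filled points have an adjusted p below 0.05. Dll1 and Dll4 lie right of 0 in the 4 comparisons of a Sec-Pro group with ISC or Ent-Pro, and Mfng lies on opposite sides in Rbpj and DBZ Sec-Pro.

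Lists of the other pathway genes were counted in the same way, 50 of 62 genes being measured. Their counts against ISC stand beside shares of all genes called lower of 29.4% in Rbpj Sec-Pro, 20.3% in DBZ Sec-Pro and 13.5% in Ent-Pro, and called higher of 17.7%, 15.9% and 12.1%. Over the 50 genes, 21 were lower and 3 higher in Rbpj Sec-Pro, 16 lower and 4 higher in DBZ Sec-Pro and 10 lower and 1 higher in Ent-Pro. Of 4 receptors, none was higher and 2 were lower in Rbpj Sec-Pro than in ISC, and 1 was higher and 2 lower in DBZ Sec-Pro. The 2 lower ones were Notch1 and Notch2, with log2 differences from ISC of -2.06 and -2.03 in Rbpj Sec-Pro, and of -2.20 for each in DBZ Sec-Pro (largest adjusted p = 0.000256). In ENT 3 receptors were lower than in ISC (26.8% of all genes were), with log2 differences of -2.13 for Notch1, -2.06 for Notch2 and -1.23 for Notch4 (adjusted p = 0.00203). Notch4 was higher in DBZ Sec-Pro than in Rbpj Sec-Pro by 1.43 (adjusted p = 0.00805).

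Of 6 measured genes of ligand endocytosis, the step by which the ligand cell pulls on the receptor, 3 were lower and none higher than in ISC in each of Rbpj Sec-Pro, DBZ Sec-Pro and Ent-Pro (29.4%, 20.3% and 13.5% of all genes were lower). The ubiquitin ligase Mib2 was lower than in ISC by -0.93 in Rbpj Sec-Pro (adjusted p = 0.000498) and -0.82 in DBZ Sec-Pro (adjusted p = 0.0012), and the endocytic adaptor Epn1 by -0.65 in DBZ Sec-Pro (adjusted p = 0.0039). The ubiquitin ligase Mib1, which ligands need in order to signal, was lower in Rbpj Sec-Pro than in ISC by -0.38 (adjusted p = 0.0235) and higher in DBZ than in Rbpj Sec-Pro by 0.54 (adjusted p = 0.0191). Of 3 measured genes of receptor glycosylation other than Fringe, 2 were lower than in ISC in Rbpj Sec-Pro, Poglut1 and Pofut1 (-0.48 and -0.46), and 1 in DBZ Sec-Pro, Eogt (-0.57, adjusted p = 0.0411). Of 7 receptor cleavage genes, 1 was lower in Rbpj Sec-Pro and 2 in DBZ Sec-Pro, with none higher, and the gamma-secretase subunit Psen2 fell in both, by -1.04 and -0.52.

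The list of 8 Notch targets held Hes1, Hes5, Hes6, Hes7, Hey1, Hey2, Heyl and Nrarp. They were listed by name and not by a response in these data. Hey2 (3.55 to 3.87) was near background on every array. Of the 8, 4 were lower than in ISC in Rbpj Sec-Pro (29.4% of all genes) and 3 in DBZ Sec-Pro (20.3%), with none higher. In ENT 4 were also lower than in ISC (26.8%) and 1 higher (22.3%), and in Ent-Pro 2 were lower (13.5%) and 0 higher. Hes1, which represses Atoh1, was lower than in ISC by -1.45 (adjusted p = 0.00662) in Rbpj Sec-Pro and -2.60 (adjusted p = 0.000431) in DBZ Sec-Pro. Nrarp, a feedback inhibitor of Notch, was lower by -0.61 (adjusted p = 0.0486) and -2.11 (adjusted p = 0.000183), and was lower in DBZ than in Rbpj Sec-Pro by -1.49 (adjusted p = 0.00583). In the Atoh1-/- groups Hes1 read 8.68 and 8.18 for ENT and 9.79 and 9.50 for Ent-Pro, against 9.83 and 9.79 for ISC. Nrarp read 8.61 and 8.36 for ENT and 8.69 and 8.67 for Ent-Pro, against 9.81 and 9.48 for ISC. Of 6 measured genes of the nuclear complex, 3 were lower in Rbpj Sec-Pro, among them the deleted Rbpj, and 1 was higher and 2 lower in DBZ Sec-Pro. Of 7 inhibitors and turnover genes, 2 were higher and 4 lower in Rbpj Sec-Pro, and 1 higher and 2 lower in DBZ Sec-Pro.

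Of 9 non-canonical ligands, proteins that bind Notch without the domain shared by Delta and Jagged, 1 was higher and 2 lower than in ISC in Rbpj Sec-Pro, and 1 higher and 1 lower in DBZ Sec-Pro. The higher one was Dner, a transmembrane protein best known from neurons. Its levels were 6.91 and 6.93 under dibenzazepine and 7.22 and 6.66 after loss of Rbpj, against 4.82 to 5.27 in the other groups. Its log2 difference from ISC was 2.005 (SE 0.19, adjusted p = 0.000103) in Rbpj Sec-Pro and 1.99 (adjusted p = 0.00012) in DBZ Sec-Pro. The median log2 difference from ISC over all 50 genes was -0.36 in Rbpj Sec-Pro and -0.14 in DBZ Sec-Pro, beside -0.14 and -0.09 over all genes.

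Markers of the cells these preparations could hold also differed between the groups. The mean of 7 measured goblet markers was 13.22 to 13.74 in Sec-Pro, 11.10 and 11.29 in ISC and 6.38 to 6.78 in the Atoh1-/- groups. The mean of 9 enteroendocrine markers was 10.40 and 10.14 in DBZ Sec-Pro, 9.73 and 9.29 in Rbpj Sec-Pro, 7.88 and 8.09 in ISC and 5.23 to 5.91 in the Atoh1-/- groups, and that of 5 Paneth markers was 12.34 and 12.43, 11.54 and 11.41, 9.78 and 10.34, and 6.57 to 8.29. The Paneth markers Mmp7 (10.45 and 10.13 in Ent-Pro, 6.69 and 9.74 in ENT) and Itln1 (8.75 and 9.03, 8.36 and 11.55) were not near background in the groups labelled as lacking secretory cells. Nor was Lyz1 (10.31 and 11.15, 8.22 and 11.10), while Pla2g2a read lower (5.74 and 5.66, 5.40 and 5.14). Wnt3 was near background in both groups (4.11 and 4.23, 4.17 and 3.89). In the sorted ISC, Lyz1 read 14.57 and 14.89, against 15.01 to 15.05 in Sec-Pro. Mmp7 read 10.77 and 11.57 in ISC, Itln1 12.30 and 13.02, and Pla2g2a 6.96 and 7.93. Wnt3 was near background in ISC as well (4.30 and 4.30). The order of DBZ Sec-Pro, Rbpj Sec-Pro, ISC and then the Atoh1-/- groups was shared by Dll1. Dll4 instead lay between 5.87 and 6.57 on all arrays of ISC, Ent-Pro and ENT, and Jag1 was lowest in DBZ Sec-Pro. The mean of 5 enterocyte markers was 11.11 and 11.03 in ISC, 13.22 to 13.99 in the Sec-Pro and Ent-Pro groups and 14.14 and 14.18 in ENT, an order that the Delta ligands did not share. The part of these cell types in the ligand values was not tested.

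Leukocyte markers, 9 in all, had means of 8.54 and 6.48 for Rbpj Sec-Pro, 7.11 and 8.15 for DBZ Sec-Pro, 7.37 and 7.62 in ENT, 6.09 and 5.90 in Ent-Pro and 5.36 and 5.49 in ISC. Rbpj Sec-Pro replicate 1, the highest of these, was also the lower array of its group in Dll1, Lfng, the stem cell list (8.74 against 9.94) and the list of 7 tuft markers (6.47 against 8.40), and the higher in the dimmer Jag2 probe set. The part of these cells in those values was not tested. Endothelial cells carry Dll4 and Jag1 in many tissues. The mean of 8 endothelial markers was 4.99 to 5.31 over all arrays, and Pecam1 (3.87 to 4.40) and Vwf (3.79 to 4.35) were near background on all 10, Emcn on 9, Tek on 7, Kdr on 1 and Cdh5, Esam and Eng on none. Cdh5 stayed between 4.82 and 5.198. Esam was highest in DBZ Sec-Pro (8.43 and 8.17), with 8.14 and 7.78 in ISC and 7.49 and 7.51 in Rbpj Sec-Pro, and Eng was highest in Rbpj Sec-Pro (7.09 and 7.11), with 6.20 and 6.11 in DBZ Sec-Pro. Of the 8, 1 was called higher and 1 lower than in ISC in each Sec-Pro group, and the part of these cells in the Dll4 and Jag1 values was not tested beyond these levels.

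**Figure D4:**
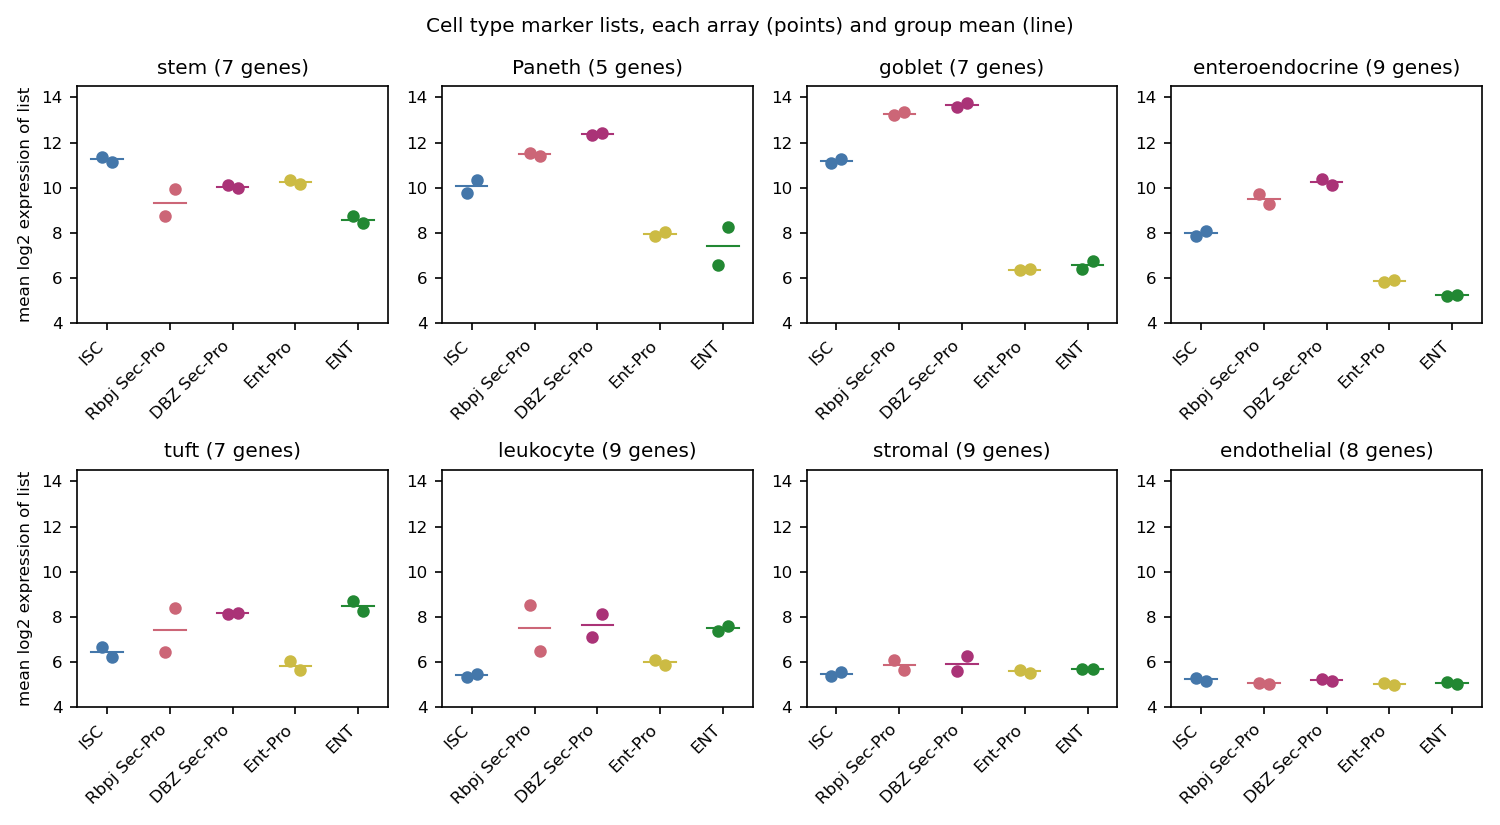
Mean log2 expression (y axis) of 8 cell type marker lists on each array (points) with the mean of each group (line). Goblet, Paneth and enteroendocrine lists are highest in the Sec-Pro groups, the leukocyte list differs most between the 2 arrays of Rbpj Sec-Pro, and the endothelial list stays between 4.99 and 5.31.

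Within the family, Dll1 and Dll4 had r = 0.89 over the 10 arrays, Dll3 had r = 0.73 with Dll1 and 0.77 with Dll4, and Jag1 had r = -0.83 with Dll1. Lfng and Mfng had r = 0.78, and Rfng had r = -0.74 with Dll4. These describe 10 arrays in 5 groups and carry no test, since arrays of a group share their preparation. Among all genes whose group means spanned at least 1, those most like Dll1 were Bambi, Fam117a, Hpd, Klk1 and Ccl9 (r from 0.977 to 0.983). Most like Dll4 were Pla2g10, Tpm4, Dnajc10, Gfi1 and Dnajc12 (0.980 to 0.986), and most like Dll3 were Ang3, Hid1, Tubb3, Klhdc8a and Pou2af1 (0.962 to 0.982). Outside DBZ Sec-Pro, Dll3 and the group means of Tubb3 (3.92 to 4.365), Pou2af1 (4.14 to 4.56) and Ang3 (4.39 to 4.83) were low, so these r rest mostly on the DBZ Sec-Pro arrays. Hid1 was not low there (8.26 to 8.85). Most like Jag1 were Nectin3, Cth, Ppara, Mgst1 and Bmp2k (0.916 to 0.962). Most like Lfng were Gga2, Pecr, Zbtb8a, Lztr1 and Pkp1 (0.930 to 0.967), and most like Mfng were Pcdhb20, Bcat2, Tst, Tmem120b and Egf (0.895 to 0.954).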

How the data were processed

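The deposited tables hold log2 expression from the authors for 22690 probe sets and 10 arrays. RMA and MAS5 are named per the submitters' processing notes, and their roles and versions are not given in the sources used here. The log2 values were used without further scaling. Probe sets with exactly 1 gene symbol in the platform annotation (20393) were used and the 64 control probe sets left out, which gave 12393 genes, each by its brightest probe set, with no filter on dim genes. All arrays entered 1 model of 5 group means in limma 3.58.1 (R 4.3.3; lmFit and eBayes, 5 residual and 3.75 prior degrees of freedom), tested on simulated data; second probe sets were adjusted in a fit of every single-gene probe set. Replicate numbers were not used in the main model. Named were the 8 genes, for each with group means spanning at least 1 the 5 genes of highest r over the arrays, up to 2 genes with the smallest p of each pathway list and comparison, and Atoh1, Rbpj and Lgr5. Outside this rule, some values were chosen after they were seen. These were Notch4 in ENT, Nrarp in Rbpj Sec-Pro, Hes1 and Nrarp in the Atoh1-/- groups, Hey2, and single marker genes. Genes, lists and the bound for near background were chosen with earlier results of these data known. The small number of arrays limits the precision. Alternatives were 2 scalings, 3 other uses of probe sets, a filter on dim genes, the replicate block, a fit of only the 2 groups compared, a variance trend and leaving out each array.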

Additional observations from a re-analysis of the deposited data

Results flagged for a closer look

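The groups prepared by the 2 ways of blocking Notch, dibenzazepine and loss of Rbpj, differed in 4 of the 8 genes by limma's test of DBZ against Rbpj Sec-Pro (adjusted p below 0.05). There 16.4% of all genes were called, and 0.783% with only the arrays of these 2 groups. The way of blocking and the cell mix of each preparation cannot be told apart in these differences. On the brightest probe sets the log2 difference was 1.98 for Dll3, 1.49 for Mfng, 1.17 for Lfng and 0.66 for Dll4, all higher in DBZ Sec-Pro on both arrays. The second probe set repeated this for Dll4 (0.75, adjusted p = 0.0181) and not for Lfng (-0.16, adjusted p = 0.493). That of Jag2 was called lower in DBZ Sec-Pro (-0.74, adjusted p = 0.0246). For Mfng the 2 groups lay on opposite sides of ISC, while for Dll4 both lay above it. The calls of Dll3, Dll4 and Lfng were lost without Rbpj Sec-Pro replicate 1 (adjusted p from 0.0515 to 0.112).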

How the results depend on the processing

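The 40 called differences among 80 were tried under up to 19 alternatives each (735 values). Of these values, 633 kept direction and call and 95 kept direction without the call. Direction could not turn in many of them. The replicate block, variance trend, filter, every probe set tested alone and the 2 groups alone left the log2 difference unchanged. So did leaving out an array of a group not compared. For Dll1, Dll3 and Mfng, with 1 probe set each, the probe set choices also repeated it. The counts of kept direction therefore say little about stability. The remaining 7 values turned, all on the probe set with the lowest mean. There Lfng gave -0.31 for DBZ Sec-Pro against ISC and -0.16 against Rbpj Sec-Pro, Rfng 0.17 for ENT against ISC, and Jag1 -0.28 for Ent-Pro against ISC, 0.0216 for Rbpj Sec-Pro against Ent-Pro, and 0.12 and 0.0098 for DBZ Sec-Pro against Ent-Pro and ENT. Jag2, not called before, was called there with turned sign for Rbpj Sec-Pro against Ent-Pro (0.89) and ENT (0.64). Counts of called genes among the 8 moved as follows. With genes above the median level, which keeps 2 of the 8, they were 2 for Rbpj Sec-Pro against ISC, 2 for DBZ Sec-Pro against ISC and against ENT, 1 for either Sec-Pro group against Ent-Pro, 1 for ENT against Ent-Pro and 0 for DBZ against Rbpj Sec-Pro (limma, 1 at an unadjusted p below 0.05; no other tool was run). With the lowest probe set Ent-Pro against ISC had 1, with the mean of the probe sets ENT against ISC had 1, after cyclic loess Rbpj Sec-Pro against Ent-Pro had 2, and with only the 2 groups compared that had 1 and DBZ against Rbpj Sec-Pro 1. ENT against Ent-Pro had 1 in place of 2 under median centring, both probe set choices, every probe set tested alone, the 2 groups alone, the variance trend and the replicate block. The replicate block changed the count of no other comparison by over 1.5 times, lost Mfng in Rbpj Sec-Pro against Ent-Pro and Dll4 in ENT against Ent-Pro, and added Jag1 in DBZ Sec-Pro against ISC (adjusted p = 0.041). The numbers were not taken to mark pairs: deviations of same-numbered arrays from their group means correlated with r from -0.19 to 0.17 over 10 pairs of groups, 1 of them above 0.1. Leaving out 1 array gave 2 to 4 for Rbpj Sec-Pro against ISC, 5 to 7 for DBZ Sec-Pro against ISC, 1 to 3 for Ent-Pro against ISC, 0 to 4 for ENT against ISC, 2 to 5 and 5 to 6 for Rbpj and DBZ Sec-Pro against Ent-Pro, 0 to 2 for ENT against Ent-Pro, 2 to 5 for DBZ against Rbpj Sec-Pro, and 2 to 4 and 7 to 7 for Rbpj and DBZ Sec-Pro against ENT. The counts of 0 are limma's, with 2 genes at an unadjusted p below 0.05 for ENT against ISC without either ISC array, and 0, 3 and 3 for ENT against Ent-Pro without Ent-Pro replicate 1, Ent-Pro replicate 2 and ENT replicate 2. The share of all genes called also changed without 1 array, so these ranges do not show a change particular to the 8 genes. The cause of these changes was not tested. Over all genes the share called fell to 0.783% for DBZ against Rbpj Sec-Pro and 5.69% for Rbpj Sec-Pro against Ent-Pro with only the 2 groups compared. Cyclic loess moved the median of all genes by 0.13 for Rbpj Sec-Pro against ISC and 0.11 against Ent-Pro, and centring by -0.11 for DBZ Sec-Pro against ENT.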
